A study of Homo sapiens with 2 samples.

Results

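IL4 acts on cells through receptor chains, JAK kinases and the transcription factor STAT6, and the mRNA of 9 of these genes was examined in H2228 cells: the receptor chains IL4R, IL13RA1, IL13RA2 and IL2RG, the kinases JAK1, JAK2, JAK3 and TYK2, and STAT6. The genes were listed by name, as components of the type I and type II IL4 receptors, in a choice made with earlier results of these data known. They are 9 of 19775 genes that the array measured, and 22 probe sets were annotated to 1 of them and to no other gene. Each probe set is a group of short probes that reads 1 stretch of a transcript, and each gene was represented by the brightest of its probe sets, judged on both arrays.

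H2228 cells derive from a human lung adenocarcinoma with the EML4-ALK fusion, variant 3, and are 1 cell line. RNA of untreated cells and RNA of cells given IL4 was each hybridized to 1 Affymetrix U133 Plus 2.0 array. The series gives the dose as 100 ng/mL and the time as 30 min, and the treatment label common to both samples speaks of a transfection of 48 h with EML4-ALK plasmids, EML4-ALK siRNAs or negative controls, without saying whether it applied to these cells. With 1 array per condition there were no replicates, so no test was possible, and every difference given here is between 2 arrays with no error between cultures. A difference between the cultures that has no link to IL4 cannot be told apart from an effect of IL4.

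In the type I receptor, IL4R pairs with IL2RG, the common gamma chain of several interleukin receptors, and in the type II receptor it pairs with IL13RA1, which also makes the receptor respond to IL13. The type I receptor is known mainly from blood cells and the type II receptor from epithelial and other tissue cells. IL4R carries JAK1, IL2RG carries JAK3, and IL13RA1 carries TYK2 and can also engage JAK2. The kinases phosphorylate tyrosines of IL4R to which STAT6 binds, and STAT6 is then phosphorylated, pairs with itself and enters the nucleus. IL13RA2 binds IL13 with high affinity and is best known as a decoy that does not signal through JAK kinases.

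The deposited values are log2 expression values. A log2 difference is the IL4 value less the untreated one, and the 1.5-fold level of the paper's results was used to count genes in either direction. The brightness of a probe set depends on its probes, so each gene was compared between the arrays, and levels of different genes were not ranked. Values under 5.03, the array-wide median in log2 units, were marked as dim, a coarse mark that depends on the probes too. By this measure 8 of the 9 genes lay at or above the median in untreated cells, and IL2RG lay below it. Averaged over all probe sets of each gene, 6 of the 9 did. Of all 19775 genes, each on its brightest probe set, 12949 had a mean of both arrays at or above this median. All 12 epithelial and lung adenocarcinoma markers examined lay at or above the median on both arrays, while 4 of 16 blood cell markers (CD3E, CD79A, ITGAM and HBB) did. PTPRC, which encodes the pan-leukocyte marker CD45, read 2.50 without and 2.37 with IL4.

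The stretches before the annotated start sites are shown for 3 of the genes, because they cover the receptor chain that passed 1.5-fold, its partner in the type II receptor and the transcription factor. They are the 250 bases upstream of the RefSeq start in GRCh38.p14, read 5′ to 3′ on the strand of the gene, with every CG pair in capitals. IL4R lies on the plus strand at chr16:27313724-27313973, IL13RA1 on the plus strand at chrX:118727356-118727605 and STAT6 on the minus strand at chr12:57110290-57110539.
IL4R: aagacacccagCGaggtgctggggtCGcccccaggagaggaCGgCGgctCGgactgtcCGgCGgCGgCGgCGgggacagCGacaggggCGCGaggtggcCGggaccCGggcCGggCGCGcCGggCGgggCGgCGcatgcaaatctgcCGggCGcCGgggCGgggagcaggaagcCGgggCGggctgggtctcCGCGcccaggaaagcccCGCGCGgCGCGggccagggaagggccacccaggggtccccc
IL13RA1: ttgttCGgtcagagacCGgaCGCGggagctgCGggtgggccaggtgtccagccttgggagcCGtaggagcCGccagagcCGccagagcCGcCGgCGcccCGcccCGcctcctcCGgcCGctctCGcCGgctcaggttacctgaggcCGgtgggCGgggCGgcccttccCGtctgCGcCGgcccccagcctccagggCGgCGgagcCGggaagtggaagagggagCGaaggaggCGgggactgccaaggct
STAT6: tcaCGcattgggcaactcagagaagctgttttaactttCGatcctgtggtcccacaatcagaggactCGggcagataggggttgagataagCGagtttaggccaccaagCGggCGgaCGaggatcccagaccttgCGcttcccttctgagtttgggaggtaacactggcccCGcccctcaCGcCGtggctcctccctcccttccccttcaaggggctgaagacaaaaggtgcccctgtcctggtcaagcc

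The IL4R stretch held 35 CG pairs and the IL13RA1 stretch 28, against a median of 11 over all 35116 promoter windows, and 5.8% and 15.9% of all windows held at least as many. The STAT6 stretch held 11. Over all windows of the 9 genes the counts in these 250 bases ran from 3 to 36. A JAK1 window held 35 and a JAK2 window 36, so a high count was not particular to the receptor chains. STAT proteins bind TTC and GAA separated by a short spacer, and STAT6 is known for its use of a spacer of 4 bases (TTCNNNNGAA), while a spacer of 3 (TTCNNNGAA) serves other STAT proteins as well. Both patterns read the same on both strands, and they cannot begin at the same base. They were searched in windows from 250 bases before to 50 bases after the start. Windows were found for 8 of the 9 genes, 13 in all because JAK1 and JAK2 have several starts, and IL13RA2 had none in the table. None of the 13 windows held either pattern. Of all windows, 6.44% held the first and 7.66% the second. The absence covers these windows only and says nothing of binding elsewhere.

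IL4R was the 1 gene of the 9 that passed 1.5-fold. Its probe set read 7.31 in untreated cells and 8.20 with IL4, a log2 difference of 0.89, or 1.85-fold higher with IL4. Neither value was dim. The difference ranked 285th from the highest among the 19775 genes, and 1.44% of all genes had a difference at least as high. Over genes whose mean reached the median, the 95% of differences in the middle ran from -0.82 to 0.81, so IL4R lay just outside that range. IL4R had 1 probe set, and its value therefore could not be compared with a second reading of the same gene.

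Past 1.5-fold with IL4 lay 3.21% of all genes upwards and 4.39% downwards, with no filter on low values or detection. The study's methods name a 2-fold filter and a P-value cutoff, whereas its results name 1.5-fold, so the filter behind its own counts is not clear. Of the 9 genes, 1 was higher and 0 were lower at 1.5-fold, and IL4R at 1.85-fold did not reach 2-fold. A count of 1 among 9 genes is too small to be set against these shares. The median log2 difference of the 9 genes was 0.22, and that of all genes was 0. Of the 9, 7 had a difference above 0 and 2 below, against 45.5% of all genes above 0. These counts describe genes read on the same pair of arrays, and no test stands behind them.

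**Figure D1:**
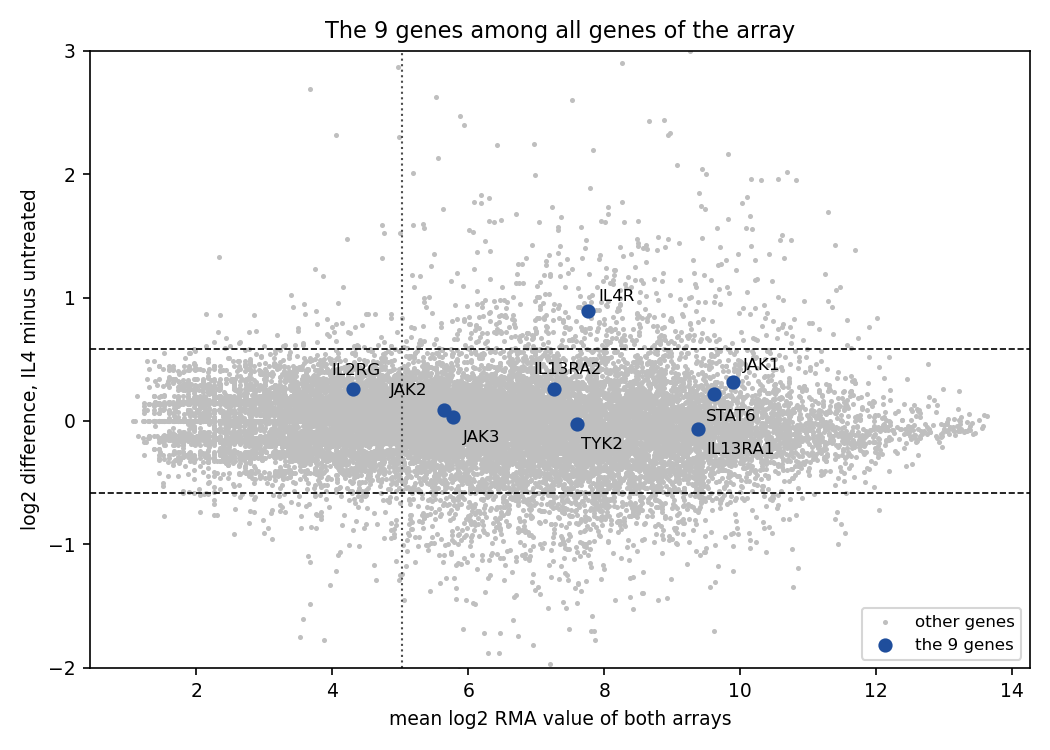
Each gene as 1 point, with its mean log2 value of both arrays on the x axis, its log2 difference (IL4 minus untreated) on the y axis, and the 9 genes in blue and labelled. Dashed lines mark 1.5-fold, the dotted line marks the median of all probe sets, and 14 genes lie outside the plotted range of -2 to 3; IL4R at 0.89 is the 1 blue point beyond a dashed line.

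IL13RA1, the chain that pairs with IL4R in the type II receptor, read 9.41 in untreated cells and 9.34 with IL4. The log2 difference was -0.062, and 0.0076 after a loess correction on the mean level. All 4 of its probe sets were above the median on both arrays, and as deposited all 4 read lower with IL4, with log2 differences from -0.21 to -0.062. The other 3 read 8.96, 8.93 and 8.29 without IL4 and 8.87, 8.72 and 8.11 with it. The standard deviation of the log2 differences over all 4 probe sets was 0.070, which measures scatter within the same 2 RNA samples. The log2 difference of IL4R exceeded that of its type II partner by 0.95.

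IL13RA2, the decoy chain for IL13, read 7.13 in untreated cells and 7.39 with IL4, both above the median, on its only probe set. The log2 difference was 0.26.

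IL2RG, the partner of IL4R in the type I receptor, read 4.17 in untreated cells and 4.43 with IL4. Both values were dim, for which reason the fold is left out, and the level does not show whether the transcript was present. The log2 difference of 0.26 was also found, to 5 decimals, in 120 other probe sets of the array. Such recurring values were common among dim probe sets. Of probe sets below the median, 55.2% had a difference other than 0 that at least 10 others shared, against 13.9% of those at or above it, and 13.5% had identical values on both arrays, against 3.12%. The differences of IL4R, IL13RA2 and the leading probe sets of IL13RA1, JAK1 and STAT6 were shared by no other probe set.

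**Figure D2:**
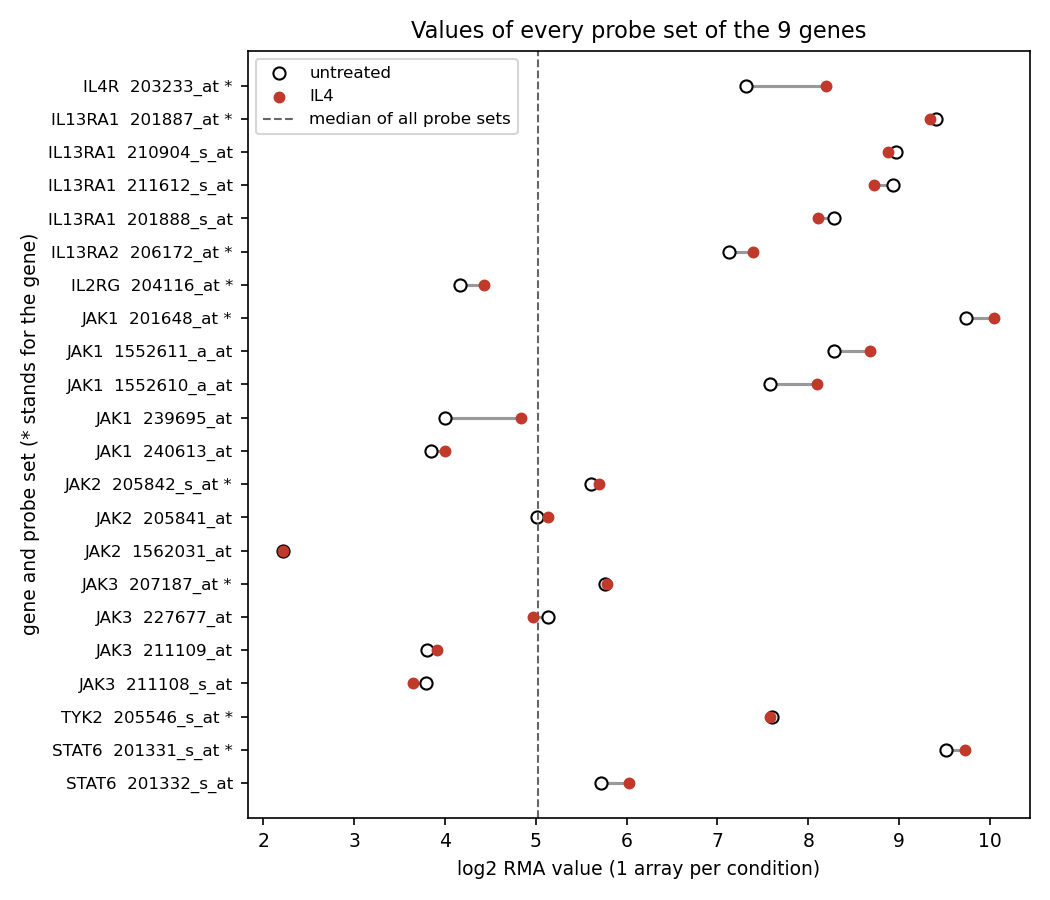
Log2 values (x axis) of all 22 probe sets of the 9 genes (rows) on the untreated array (open circles) and the IL4 array (red circles), with an asterisk on the probe set that stands for the gene. IL4R moves from 7.31 to 8.20, all 4 IL13RA1 probe sets have the red circle on the left, all 5 JAK1 probe sets have it on the right, and IL2RG lies left of the dashed median of 5.03.

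Among the kinases, JAK1 had the highest difference. JAK1, which binds IL4R and is shared by both receptor types, read 9.73 in untreated cells and 10.05 with IL4, a log2 difference of 0.32 or 1.24-fold. All 5 of its probe sets read higher with IL4. The 3 above the median had log2 differences of 0.32, 0.40 and 0.52, and the highest of them, read at 7.58 and 8.10, corresponds to 1.43-fold. Another probe set, at 3.998 without and 4.84 with IL4, passed 1.5-fold with a log2 difference of 0.84, but both values were below the median. The last, at 3.85 and 4.001, had a difference of 0.15 that 206 other probe sets shared. The probe sets thus gave 1 direction and different sizes, with a standard deviation of 0.26 between their differences.

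JAK2 read 5.60 in untreated cells and 5.69 with IL4. Its log2 difference was 0.090. A second probe set read 5.01 and 5.14, which lies across the median of all probe sets, with a difference of 0.13. The third read 2.22 on both arrays, so that its difference was 0, as it was in 4528 probe sets (8.28% of the array). None of the 3 probe sets came near 1.5-fold.

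JAK3, the kinase of IL2RG, read 5.76 in untreated cells and 5.79 with IL4 on its leading probe set, a log2 difference of 0.029. Its 4 probe sets went in both directions, 2 higher and 2 lower, and their differences ran from -0.16 to 0.12. Of the other 3, 1 read 5.13 and 4.97 and the rest lay below 4 on both arrays. Averaged over all 4, the difference of JAK3 was -0.039, so its sign depended on the probe set.

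TYK2, the kinase of IL13RA1, read 7.61 in untreated cells and 7.58 with IL4 on its 1 probe set. The log2 difference was -0.022, and 0.027 after a loess correction.

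STAT6 read 9.51 in untreated cells and 9.73 with IL4, a log2 difference of 0.22 or 1.16-fold. Its second probe set read 5.71 and 6.03, with a difference of 0.32 or 1.25-fold. Both probe sets lay above the median on both arrays and read higher with IL4, and neither passed 1.5-fold. The array reads STAT6 mRNA and not its phosphorylation, which is the step that IL4 is known to trigger.

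By probe set, 2 of the 22 passed 1.5-fold upwards, IL4R and the dim JAK1 probe set, and 0 passed it downwards. Over all probe sets with 1 gene, 3.2% were higher and 3.83% lower. Of the 22, 14 had a difference above 0, 7 below and 1 equal to 0, against 48.2% of all probe sets above 0. The 22 include several probe sets of the same gene, with all 5 of JAK1 above 0 and all 4 of IL13RA1 below. Between the 2 leading probe sets of a gene, both at or above the median, the log2 differences of 6056 genes deviated from each other with a standard deviation of 0.25. In the order of the 9 differences, each on its leading probe set, IL4R stood 0.57 above the next gene, JAK1. No other step in the order, from JAK1 through IL13RA2, IL2RG, STAT6, JAK2, JAK3 and TYK2 to IL13RA1, exceeded 0.13. Averaged over all 5 of its probe sets, JAK1 had a difference of 0.45, so the first step depends on the probe set. The standard deviation of 0.25 compares probe sets of the same gene and is no measure of steps between genes. It also holds no variation between cultures.

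**Figure D3:**
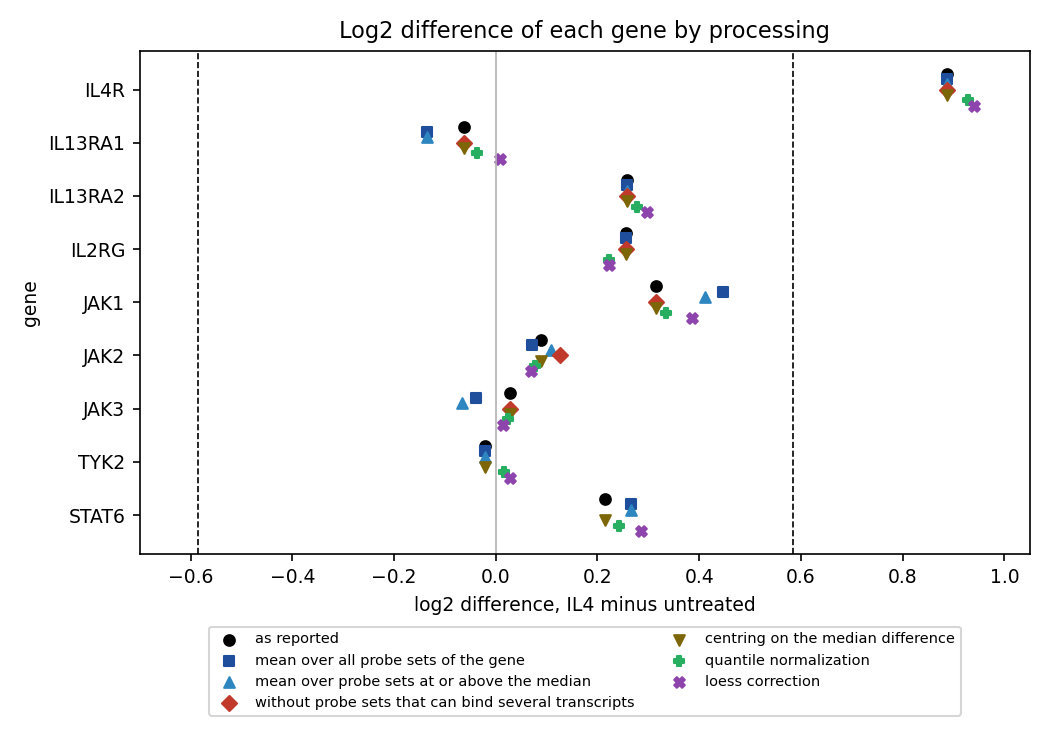
Log2 difference, IL4 minus untreated (x axis), for the 9 genes (rows) as reported and under 6 other ways of processing (5 for IL2RG, TYK2 and STAT6), 1 marker per way, with dashed lines at 1.5-fold. IL4R stays between 0.89 and 0.94, where only quantile normalization and the loess correction could move it. The markers of IL13RA1, JAK3 and TYK2 fall on both sides of 0.

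The wider IL4 pathway was read on 48 other genes. With IL4, 4 of them passed 1.5-fold upwards and 3 downwards, with a median log2 difference of -0.0052, beside 3.21% and 4.39% of all genes and a median of 0. Counts this small show nothing particular to the pathway. Of the ligands, IL4 itself read 3.06 and 2.93, below the median on both arrays, and IL13 read 5.25 and 5.46. Of 14 docking proteins and adaptors, 1 was higher and 2 were lower. IRS2, which docks on the phosphorylated IL4R and leads to PI3 kinase, read 9.54 in untreated cells and 10.42 with IL4, 1.83-fold higher, and its 2 probe sets had log2 differences of 0.86 and 0.87. The related IRS1 had a difference of 0.025. PIK3R1 and PIK3CB, a regulatory and a catalytic subunit of PI3 kinase, read 7.25 and 8.39 in untreated cells and 6.53 and 7.76 with IL4, 1.64-fold and 1.55-fold lower. Averaged over their probe sets, their differences were -0.51 and -0.57, short of 1.5-fold.

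Of 15 inhibitors of this signalling, 2 were higher and 1 was lower. SOCS1, an inhibitor of JAK kinases, went from 5.84 to 8.08, and SOCS2 from 4.44, below the median, to 5.27. Averaged over their probe sets the log2 differences were 1.03 for SOCS1 and 0.55 for SOCS2, the latter short of 1.5-fold. PIAS1, an inhibitor of STAT proteins, was 1.52-fold lower, with a log2 difference of -0.60 and -0.56 after a loess correction. Of 6 STAT6 cofactors, 0 were past 1.5-fold, and the largest differences were those of PARP14 at -0.24 and NCOA1 at -0.22. Of the 4 other STAT genes read, STAT5A was higher, from 6.51 to 7.23 or 1.64-fold, and STAT3, STAT5B and STAT4 had log2 differences of 0.15, 0 and -0.31. Of 7 other receptor chains of this family, 0 were past 1.5-fold. The largest differences were those of IL7R at 0.45 and CRLF2 at -0.42, both of which serve the cytokine TSLP. Some genes of these lists were not analysed here.

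**Figure D4:**
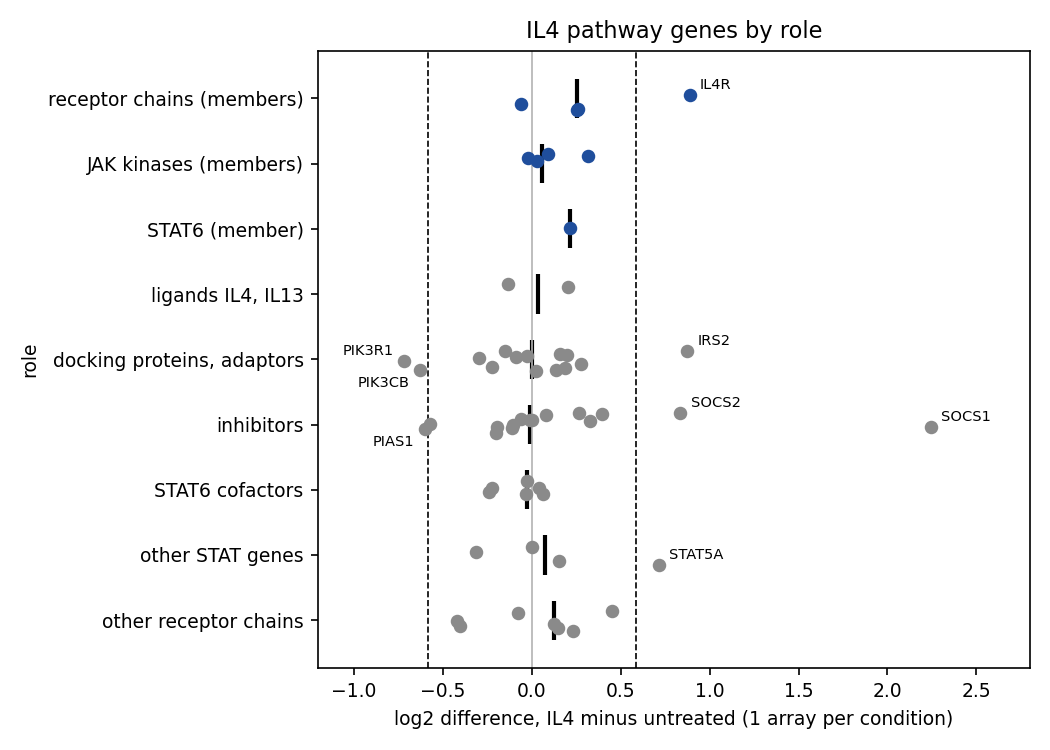
Log2 difference, IL4 minus untreated (x axis, 1 array per condition), for the 9 genes (blue) and 48 other IL4 pathway genes (grey) by role (rows), 1 point per gene with a random vertical offset. Black bars show medians (0.26 for the receptor chains, 0.059 for the JAK kinases), dashed lines mark 1.5-fold and genes beyond them are named.

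Markers of other cells were read beside these genes. Of 16 blood cell markers, 4 lay at or above the median in untreated cells and 5 with IL4, 0 passed 1.5-fold, and their summed linear level, to be compared between the arrays only, was 460 and 466. Of 12 fibroblast and endothelial markers, 4 and 2 lay at or above the median, and 1, COL3A1, passed 1.5-fold at values of 3.67 and 4.45, both below the median. Their summed linear level was 2073 in untreated cells and 2684 with IL4, most of it from COL1A1 at log2 values of 10.82 and 11.23. The summed level of the 12 epithelial and lung markers was 18201 and 21043. Among these, CDH1, which encodes E-cadherin, was 1.68-fold higher and the lung lineage factor NKX2-1 1.96-fold lower. The 2 probe sets of CDH1 had log2 differences of 0.69 and 0.75. Those of NKX2-1 differed in size, at -0.97 and -0.32, with a mean of -0.65. The lowest value on either array was 0.96, so no marker could read 0, and a low value does not show that a transcript was absent. The part of these shifts in the difference of IL4R was not tested. Fewer cells of a type and less RNA per cell cannot be told apart in RNA from a whole culture.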

How the data were processed

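RNA of untreated and of IL4-treated H2228 cells was read on 1 Affymetrix array each. The authors deposited 1 log2 value per probe set and array. RMA (background correction, quantile normalization and summary over probes) is named, without a version, in the submitters' processing notes, and the methods also name GCOS for the raw data. Quantile normalization gives both arrays nearly the same distribution, so a shift common to most genes is not kept. No genome build was given in the sources used here, and scanner files were not used here.

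Probe sets were named through the platform annotation: 41097 of 54675 carried 1 gene, and 41043 of these were updated by gene number to RefSeq (GRCh38.p14). Fold sizes are powers of 2 of the log2 differences. No test was possible, and the number of arrays limits the precision. Members and lists were chosen with earlier results of these data known. All members are named, and of the other lists the genes past 1.5-fold that reached the median on 1 array (or the 2 largest differences) and all STAT genes. The counting code was run on simulated data with less scatter than the real arrays and planted differences past 1.5-fold. That run checks the code and not the counts reported here. Alternatives were other probe set choices, scalings (loess fraction 0.3), a 2-fold level and a floor. Python 3.11.15, numpy 2.4.6, pandas 2.3.3, statsmodels 0.14.6 and matplotlib 3.10.9 were used.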

Additional observations from a re-analysis of the deposited data

How the results depend on the processing

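The 51 alternative values of the log2 differences of the 9 genes all stayed within 0.25 of the reported ones and on the same side of 1.5-fold. Many of them could not differ. Centring subtracted a median of 0, and averaging over probe sets cannot move a gene with 1 probe set. For IL4R, only quantile normalization and the loess correction could give another value. Neither had much room, since RMA already includes quantile normalization and the largest loess correction was 0.070. The limit of 0.25 was therefore hardly a check for IL4R. IL4R ran from 0.89 to 0.94, JAK1 from 0.32 to 0.45 and STAT6 from 0.22 to 0.29. Small differences changed sign: IL13RA1 became 0.0076 with the loess correction, TYK2 reached 0.027 with it and was also above 0 with quantile normalization, and JAK3 became -0.039 averaged over all its probe sets and -0.066 over those above the median. At 2-fold, 0 of the 9 genes, 0 of their probe sets, 1 other pathway gene higher and 0 lower were counted. With a floor at the median, 1 probe set of the 9 genes was higher. The shares of all genes and probe sets at 2-fold and with the floor were not computed, so these counts stand without a comparison. When probe sets with several possible targets were left out, 5 of the 9 genes lay above the median in untreated cells, since TYK2 and STAT6 have no other probe set and that of JAK2 read 5.01, and 2 other pathway genes were higher, since SOCS1 and IRS2 have none left. Over all genes, 498 of 16790 were then higher, against 635 of 19775 as reported. The lower pathway genes numbered 0 averaged over all probe sets, 1 over those above the median and 1 with the loess correction. Over all genes the same settings gave 587 of 19775, 654 of 12949 and 801 of 19775 lower, against 868 as reported, and the cause was not tested. No replicate could be left out, and no paired analysis was possible because each condition had 1 array.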
